A study of Mus musculus with 16 samples.

Results

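Gene expression in the bladder mesenchyme of male (XY) mouse embryos was compared with that of female (XX) embryos at embryonic day 16.5. The comparison took the bladder libraries of the count table, 8 of the 16 in all, 4 male and 4 female, and joined the male and the female library of each litter (replicates 1 to 4). Only autosomal genes are described. All embryos were wild-type CD-1 mice, an outbred stock, and received no treatment. A library is a pool of the bladders of 1 sex of 1 litter, so the spread between libraries is a spread between pools of siblings and not between single embryos. The connective and muscle layers had been freed from the epithelium by hand with fine forceps, after trypsin on ice and a short DNase step. The other 8 libraries are pelvic urethra mesenchyme of the same pools and are used here only where the bladder is set against them. The submitters' aim was to tell bladder from urethra by the genes each compartment expresses.

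The mesenchyme of the fetal bladder gives rise to the detrusor smooth muscle, to the fibroblasts of the lamina propria and to the outer connective tissue, and it carries vessels, nerves and resident macrophages. At this age the fetal testis secretes testosterone, and mesenchymal cells around the urethra and the genital ducts carry the androgen receptor, a nuclear receptor encoded on the X chromosome. In the male urethra androgens shape the prostate and the urethral muscles, and the fetal bladder lies just above that tissue.

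Counts summed to 18577097 to 20808028 per female and 19357942 to 22293812 per male library. Of 51006 autosomal gene symbols, 16232 passed the filter on low counts and were tested, and levels are given as CPM, which are counts scaled to the library's size. Xist and the Y-linked genes matched the labelled sex in 8 of 8 libraries. The smooth muscle genes were abundant in both sexes: Acta2, smooth muscle actin, stood at 3710.5 ± 278 CPM in females and 3524 ± 188 CPM in males (SD, n = 4), and Myh11, smooth muscle myosin, at 3497 ± 1152 CPM and 3293 ± 601 CPM. Epithelial RNA was also present, with the keratin gene Krt5 at 169.9 ± 51.2 CPM and 239.6 ± 23.1 CPM. The second principal component of the 8 libraries (24.5% of the variance) placed all 4 female libraries (−0.178 to 24.8) above all 4 male ones (−26.8 to −4.62). From its top to its bottom it also ranked the 8 libraries by rising mean log2 CPM of the epithelial list described further on. That mean ran from 5.86 in the female library of litter 3 to 7.08 in the male library of litter 3. What the component follows was not tested.

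Few autosomal genes passed the test. Of 2 genes with higher levels in males, the one described here is Pnoc, the precursor of the neuropeptide nociceptin. Males had lower levels of 11 genes, among them the transcription factor genes Dmrt2, Tbx18 and Prrx1, the retinoic acid binding protein gene Crabp1 and the matrix and protease genes Adam12, Adamts1 and Emilin2. By edgeR's quasi-likelihood test with the litter as a block (adjusted p below 0.05, Benjamini-Hochberg over all 16824 tested genes) the 2 higher genes were 0.0123% and the 11 lower genes 0.0678% of the autosomal genes tested. In what follows, edgeR with the block means this fit of the bladder libraries alone. A difference of at least 2-fold was found in 5 of the 13. Each of the 13 had the same direction in 4 of 4 litters, and in 12 of them the female and male libraries did not overlap. Over all autosomal genes, 4.15% had all 4 male libraries above the 4 female ones and 2.58% had all 4 below. At an unadjusted p under 0.05, 1168 genes (7.2%) stood higher in males and 1038 (6.39%) stood lower; the median log2 fold change over all autosomal genes was −0.0059.

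**Figure D1:**
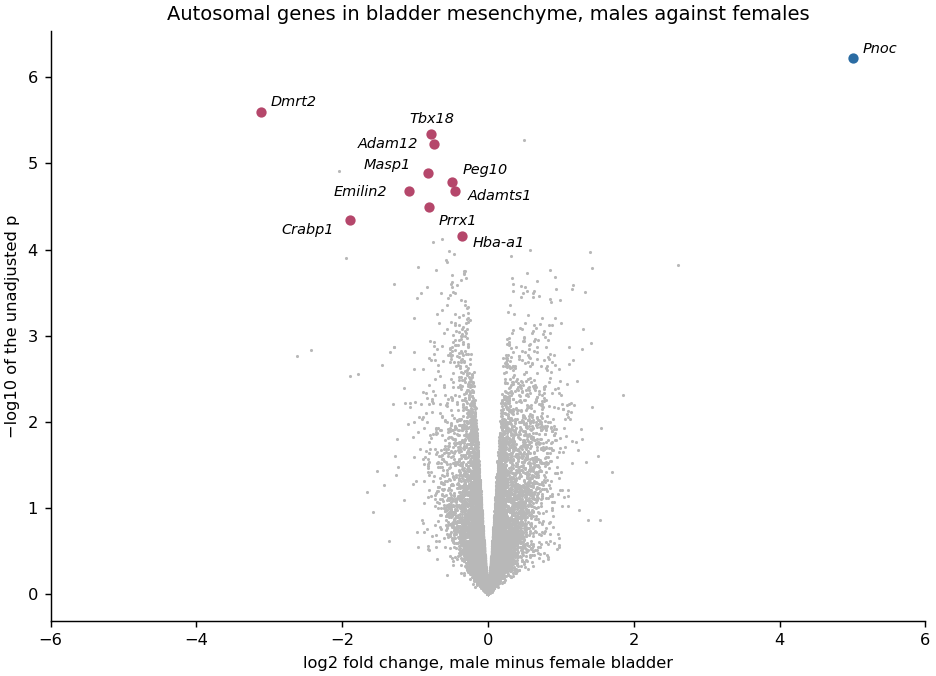
Each point is an autosomal gene tested in the bladder. The horizontal axis is the log2 fold change, males minus females, and the vertical axis is −log10 of the unadjusted p; 11 of the 13 genes past an adjusted p of 0.05 are named, blue where higher and red where lower in males. Pnoc and Dmrt2 have the largest differences among them, 5.01 and −3.11, and the middle 90% of all autosomal genes lie between −0.32 and 0.46.

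The number of calls rested on single litters. Without litter 4 no autosomal gene was called in either direction (edgeR, 1464 genes at an unadjusted p under 0.05), whereas without litter 3 there were 28 higher and 57 lower genes, without litter 1 there were 6 and 2, and without litter 2 there were 2 and 27. Of the 13 genes, 4, 9, 12 and 0 were called without litters 1, 2, 3 and 4, and their log2 fold changes kept their sign in each case. Without the litter block, 3 genes were higher and 4 lower, and 4 of the 13 (with Pnoc, Adam12 and Emilin2) were among them.

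Among the 13 called genes 3 encode transcription factors of mesenchymal cells, and each was lower in males. Tbx18, a T-box factor gene known from the mesenchyme around the ureter, stood at 22.02, 20.96, 21.9 and 29.3 CPM in the female libraries of litters 1 to 4 and at 12.5, 13.3, 13.3 and 15.4 CPM in the male ones. The lowest female library lay above the highest male library. The log2 fold change was −0.78 ± 0.08 (SE), with an adjusted p of 0.0076 by edgeR's quasi-likelihood test. Prrx1, a paired-related homeobox gene of limb, face and body wall mesenchyme, stood at 88.2, 97.1, 89.6 and 119 CPM in females and at 43.8, 67.6, 56.6 and 58.6 CPM in males, again without overlap (−0.80 ± 0.09, adjusted p = 0.0246). Dmrt2, a DM-domain factor known from the somites, was much less abundant, at 2.44, 2.54, 0.636 and 4.09 CPM in females and 0.239, 0.278, 0.177 and 0.357 CPM in males. Its counts ran from 13 to 80 in female and from 4 to 7 in male libraries, and the female library of litter 3 was the lowest of its group while still above every male library. Its difference was −3.11 ± 0.29 (adjusted p = 0.00469).

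To show the upstream sequence of these genes, the 250 bases before the annotated start are given for Dmrt2 (chr19:25672161-25672410, plus strand) and Tbx18 (chr9:87731261-87731510, minus strand), and for Crabp1 (chr9:54764498-54764747, plus strand), which is described next. They are RefSeq sequences of GRCm38.p6, written 5′ to 3′ on the gene's strand; capitals mark CCAAT boxes (CCAAT or ATTGG) and GC boxes (GGGCGG or CCGCCC).
Dmrt2: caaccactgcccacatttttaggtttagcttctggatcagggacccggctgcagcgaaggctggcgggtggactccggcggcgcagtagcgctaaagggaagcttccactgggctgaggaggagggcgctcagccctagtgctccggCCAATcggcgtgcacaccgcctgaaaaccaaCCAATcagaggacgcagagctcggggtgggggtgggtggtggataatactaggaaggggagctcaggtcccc
Tbx18: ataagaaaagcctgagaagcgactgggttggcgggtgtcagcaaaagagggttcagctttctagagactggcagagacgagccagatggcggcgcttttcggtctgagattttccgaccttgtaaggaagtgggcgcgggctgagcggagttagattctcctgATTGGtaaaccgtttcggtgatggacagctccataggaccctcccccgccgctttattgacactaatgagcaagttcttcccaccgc
Crabp1: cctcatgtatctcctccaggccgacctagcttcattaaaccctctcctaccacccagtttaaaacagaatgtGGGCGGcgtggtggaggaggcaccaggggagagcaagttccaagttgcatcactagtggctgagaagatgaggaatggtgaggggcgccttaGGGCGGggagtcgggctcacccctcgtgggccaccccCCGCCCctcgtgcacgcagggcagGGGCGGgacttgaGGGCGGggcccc
Promoter windows were found for 7 of the 13 called genes (Dmrt2, Tbx18, Adamts1, Emilin2, Prrx1, Crabp1 and Hba-a1), 8 windows in all. None of the 8 holds the androgen receptor half-site AGAACA (or TGTTCT) or the nuclear receptor half-site AGGTCA (or TGACCT), which 16.1% and 14.1% of 31396 autosomal windows of the same length hold. A CCAAT box was found in 3 of the 8 windows (Dmrt2, Tbx18 and Hba-a1, beside 33.7% of all windows) and a GC box in 3 (Adamts1, Emilin2 and Crabp1, beside 33.0%). A match of letters is a description of the sequence and says nothing about binding.

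Crabp1, which binds retinoic acid in the cytoplasm, had one of the larger differences. Its level was 15.1, 23.2, 15.9 and 25.6 CPM in females and 2.39, 6.35, 6.63 and 6.48 CPM in males, and the male library of litter 1 lay well below the other males. The log2 fold change was −1.90 ± 0.20 (adjusted p = 0.0329). Of 18 tested retinoic acid genes, Crabp1 was the only one called by edgeR with the block, DESeq2 called 3 and edgeR without an expression filter 4, and 2 were higher and 6 lower at an unadjusted p under 0.05 (median −0.07). Crabp2, which carries retinoic acid to its receptors, had −0.63 ± 0.09 (adjusted p = 0.0511), and its sexes overlapped. Rarb, a retinoic acid receptor gene, and Rdh10, which oxidises retinol, had −0.24 ± 0.06 and −0.28 ± 0.08 without passing the test. Aldh1a1, which makes retinoic acid from retinal, was at 0.25 ± 0.09.

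Genes of the extracellular matrix and its proteases formed another part of the lower genes. Adam12, a membrane metalloprotease of mesenchymal and muscle precursor cells, stood at 56.9, 51.4, 64.6 and 69.8 CPM in females and 32.2, 36.5, 40.2 and 35.8 CPM in males (−0.74 ± 0.08, adjusted p = 0.00806). Adamts1, a secreted protease that cleaves versican, stood at 119, 128, 129 and 156 CPM against 82.5, 104, 91.7 and 109 CPM (−0.46 ± 0.06, adjusted p = 0.0178). Emilin2, an elastic fibre glycoprotein gene, stood at 15.5, 13.6, 16.1 and 19.8 CPM against 5.68, 8.57, 8.22 and 8.21 CPM (−1.08 ± 0.13, adjusted p = 0.0178). In all 3 genes the female libraries lay above every male library. Masp1, a serine protease gene of the lectin branch of complement, likewise did not overlap, at 23.3, 30.3, 18.8 and 24.2 CPM in females and 11.1, 16.8, 12.98 and 13.7 CPM in males (−0.82 ± 0.09, adjusted p = 0.0136).

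Pnoc was nearly silent in females. It had 0, 6, 3 and 2 counts in the female libraries and 98, 164, 62 and 80 counts in the male libraries of litters 1 to 4, or 0, 0.324, 0.147 and 0.102 CPM against 4.67, 7.601, 2.74 and 4.08 CPM. The sexes were far apart in every litter. The fitted difference was 5.01 ± 0.38 (adjusted p = 0.00167), and its size depends on the prior count added to the near-zero female libraries. Peg10, a paternally expressed imprinted gene of retrotransposon origin, stood at 149.8, 136, 165 and 179 CPM against 97.9, 108, 119 and 120.4 CPM (−0.50 ± 0.06, adjusted p = 0.0161). Hba-a1, alpha globin of red cells, stood at 691, 706, 544 and 802 CPM against 538, 587, 418 and 595 CPM (−0.36 ± 0.05, adjusted p = 0.0491); it is the only called gene whose sexes overlapped, and its value is uncertain because the near-identical Hba-a2 can share its reads.

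**Figure D2:**
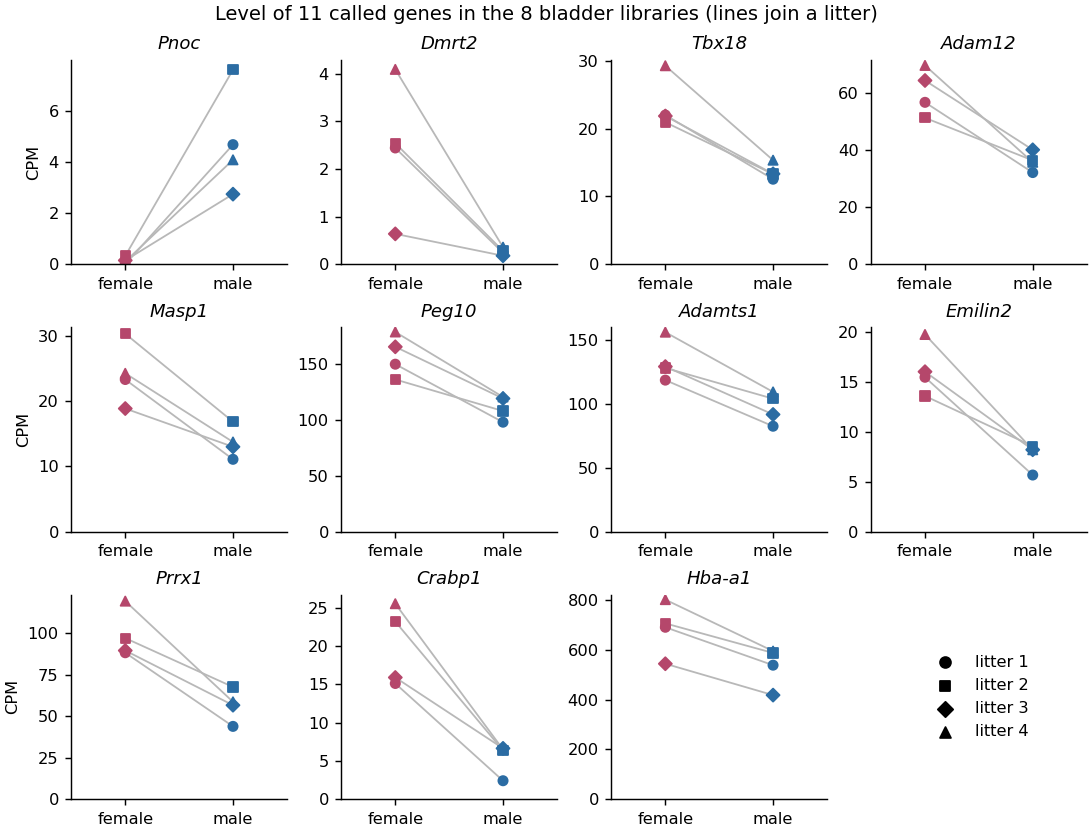
Each panel is 1 called gene, with its level in CPM (vertical axis, from 0) in the 4 female and the 4 male bladder libraries; marker shapes are litters, and lines join the libraries of 1 litter. The 11 panels show sexes that do not overlap, Hba-a1 being the exception, and all lines of a panel slope the same way.

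On GRCm38 the called genes lie on several chromosomes. Tbx18 spans chr9:87702800-87731260 and Crabp1 chr9:54764748-54773110. Pnoc spans chr14:65400673-65425472, Dmrt2 chr19:25672411-25678991, Adam12 chr7:133883199-134232146 and Prrx1 chr1:163245119-163313710. Masp1 and Adamts1 span chr16:23449417-23520815 and chr16:85793827-85803113, Peg10 chr6:4747306-4760517, Emilin2 chr17:71252172-71311978 and Hba-a1 chr11:32283511-32284465.

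The gene lists were read beside the shares of all autosomal genes given above, for the test and for libraries without overlap. List members named beyond those called or leading their list by p were chosen after their values were seen. Of 44 tested urogenital and mesenchymal transcription factor genes, 2 (Tbx18 and Prrx1) were called lower, 18 were lower and 1 higher at an unadjusted p under 0.05, and 10 had all males below all females (median −0.13). Ebf2, Ebf3 and Ebf1, early B cell factor family genes of connective tissue, had −2.43 ± 0.42, −1.30 ± 0.29 and −0.58 ± 0.19 (adjusted p = 0.121, 0.188 and 0.252). Foxd1, a gene of renal and perivascular stroma, stood at 1.08 ± 0.2098 CPM in females and 0.2697 ± 0.0617 CPM in males (SD, n = 4; −1.95 ± 0.30, adjusted p = 0.0623). The basic helix-loop-helix gene Twist1, the homeobox gene Alx4 and Prrx2, the paralog of Prrx1, had −0.49 ± 0.10, −1.16 ± 0.29 and −0.60 ± 0.12, each with all males below all females. Osr1, a zinc finger gene of the early urogenital mesenchyme, had −0.27 ± 0.05 (adjusted p = 0.0934). The 14 tested Hox genes of groups 9 to 13 gave no call by edgeR with the block and none at an unadjusted p under 0.05 (median −0.08), with Hoxa9 at 0.16 ± 0.08.

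Fibroblast and matrix genes had lower values in males almost throughout, but no member passed edgeR's test with the block. Of 36 members 35 had a log2 fold change below 0 (median −0.24), 19 were lower and none higher at an unadjusted p under 0.05, and 7 had all males below all females. Postn, periostin of remodelling matrix, stood at 596 ± 109.6 CPM in females and 382 ± 53.5 CPM in males (SD, n = 4; −0.63 ± 0.12, adjusted p = 0.117). Tnc, tenascin C, had −0.86 ± 0.18, the fibrillin gene Fbn2 −0.45 ± 0.09, the proteoglycan genes Dcn and Lum −0.27 ± 0.06 and −0.29 ± 0.06, and Tnxb, tenascin X, −0.40 ± 0.08 (adjusted p = 0.0961). Col1a1, a chain of type I collagen, was at −0.02 ± 0.05. DESeq2 called 16 of the 36 members, and edgeR without litter 2 called 5. The mean log2 CPM of the list was lower in the males of all 4 litters, by 0.29, 0.02, 0.41 and 0.42, so litter 2 scarcely differed. The epithelial markers described further on were higher in the same male libraries, and with their mean as a covariate the median of the matrix list was −0.12. Because that mean rose in the male of all 4 litters, the fit cannot fully separate it from sex.

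Signalling genes gave no calls in the main edgeR fit of the bladder libraries with the litter block. DESeq2 called 2 genes of the BMP and TGF-beta families, 4 Wnt, 5 growth-control, 1 fibroblast growth factor and 0 hedgehog genes. Over all 16 libraries with the block, edgeR called 3 Wnt genes, 2 of the BMP and TGF-beta families and 1 growth-control gene, all lower in males. Some other edgeR settings also gave calls. Of 44 genes of the BMP and TGF-beta families, 5 were higher and 12 lower at an unadjusted p under 0.05 (median −0.10), among them the ligand genes Gdf10 at −1.30 ± 0.21 and Bmp2 at 0.50 ± 0.10, and the latent TGF-beta binding protein gene Ltbp1 at −0.53 ± 0.11. Gdf10 stood at 64.5 ± 16.8 CPM in females and 26.5 ± 7.81 CPM in males (SD, n = 4), without overlap, with an adjusted p of 0.117. Of 43 Wnt pathway genes 9 were higher and 5 lower at that level (median −0.008). The secreted Wnt antagonist genes Sfrp4 and Dkk2 had −1.90 ± 0.40 and −1.30 ± 0.22, Wnt5b had −0.44 ± 0.09 and Wnt4 0.52 ± 0.14. Of 20 insulin-like growth factor and growth-control genes 10 were lower and 1 higher (median −0.18): Igf1 had −0.46 ± 0.09, and the imprinted genes Cdkn1c, Peg3, Dlk1, H19 and Igf2 had −0.31 ± 0.05, −0.49 ± 0.10, −0.30 ± 0.06, −0.27 ± 0.05 and −0.30 ± 0.09. Among 21 fibroblast growth factor genes 2 were higher and 3 lower (median −0.05; Fgfr3 0.46 ± 0.11), and among 16 hedgehog genes 2 and 2 (median −0.01; Boc −0.25 ± 0.08).

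No androgen response gene passed edgeR's test with the litter block in the bladder. DESeq2 called 3 higher, edgeR over all 16 libraries 1 and edgeR with the neuron covariate 2. Of 25 tested members 8 were higher and 1 lower at an unadjusted p under 0.05, and 5 had all males above all females (median 0.05). The mean log2 CPM of the list was higher in the males of all 4 litters, by 0.10, 0.12, 0.21 and 0.09. Zbtb16, a zinc finger gene induced by steroids, had 0.47 ± 0.09 (adjusted p = 0.106) with overlapping sexes. Fkbp5, a chaperone gene that steroid receptors induce, had 0.08 ± 0.06, at 73.4 ± 11.2 CPM in females and 77.5 ± 10.4 CPM in males (SD, n = 4). Tmprss2, a surface protease gene of epithelia, stood at 89.8 ± 29.95 CPM and 154 ± 11.4 CPM (0.83 ± 0.24, adjusted p = 0.243). Among steroid receptor and enzyme genes 19 were tested, none was called by edgeR with the block (1 by DESeq2 and 1 by edgeR without litter 3), and 3 were higher and none lower at an unadjusted p under 0.05 (median −0.07). Srd5a1, a steroid 5-alpha reductase gene, stood at 79.2, 72.4, 44.3 and 55.3 CPM in females and 86.8, 89.5, 97.1 and 86.8 CPM in males. All males lay above all females, with a difference of 0.55 ± 0.17 and an adjusted p of 0.272. Hsd17b2, which inactivates testosterone and estradiol, had 0.93 ± 0.21 (edgeR, adjusted p = 0.168). With the epithelial list as a covariate the values of Srd5a1 and Hsd17b2 were 0.05 and 0.33. The mean of that list was itself higher in the male of all 4 litters, so this fit cannot fully separate it from sex. Srd5a2, which makes dihydrotestosterone, was below the filter, with 4, 9, 2 and 2 counts in females and 1, 13, 8 and 7 in males. The estrogen receptor gene Esr1 stood at 7.7995, 12.5, 16.4 and 18.3 CPM in females and 7.97, 12.4, 6.98 and 7.65 CPM in males, overlapping (−0.63 ± 0.28, adjusted p = 0.403), and the progesterone receptor gene Pgr had −0.22 ± 0.16 (adjusted p = 0.585).

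**Figure D3:**
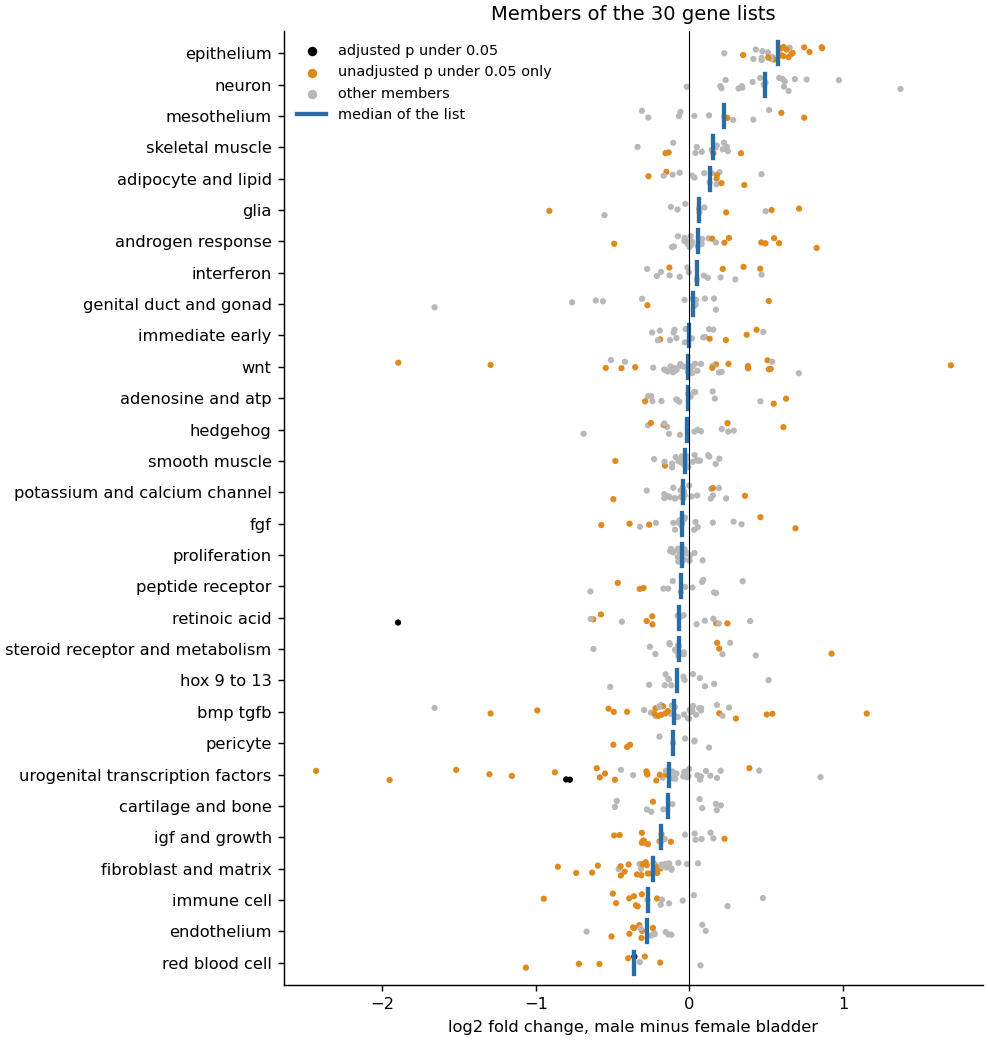
Each row is 1 of the 30 gene lists, sorted by the median, and each point is a tested member with its log2 fold change, males minus females, on the horizontal axis; black points passed an adjusted p of 0.05, orange points only an unadjusted p of 0.05, and the blue bar is the median. The epithelium and neuron lists lie highest (medians 0.57 and 0.49) and the red blood cell list lowest (−0.36), and black points stand in 3 lists.

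Smooth muscle and proliferation genes had medians close to 0. Of 27 smooth muscle genes 2 were lower and none higher at an unadjusted p under 0.05 (median −0.03); they were Itga8, an integrin gene, at −0.48 ± 0.16, and Pgm5 at −0.16 ± 0.07. Of 16 tested skeletal muscle genes 2 were higher and 2 lower at an unadjusted p under 0.05, and 1 had all males below all females (median 0.15). The one with the smallest p, Tnnt3 (fast troponin T), had 0.34 ± 0.06 (edgeR, adjusted p = 0.0721). By litter the mean log2 CPM of the list, males minus females, was 0.21, 0.18, 0.03 and −0.06. Its members Myod1, Myf5, Pax7 and Mymk were below the filter. None of 22 proliferation genes reached an unadjusted p under 0.05 (median −0.05; Mki67 −0.06 ± 0.06, Mcm2 −0.13 ± 0.06). By edgeR with the block, no call was made in the potassium and calcium channel list (26 tested, median −0.04; Kcnj8 −0.50 ± 0.08, adjusted p = 0.0698), the adenosine and ATP list (17, median −0.0084; Enpp1 −0.29 ± 0.06), the peptide receptor list (15, median −0.06; Ramp2 −0.32 ± 0.09) or the immediate early list (20, median −0.0043; Ier3 0.37 ± 0.11). The interferon list (17, median 0.05; Tap1 0.35 ± 0.11), the adipocyte and lipid list (17, median 0.13; Insig1 0.18 ± 0.05), the cartilage and bone list (12, median −0.14; Col9a2 −0.24 ± 0.09) and the genital duct and gonad list (15, median 0.02) gave none either. The mean log2 CPM of the genital duct list, males minus females, was 0.17, 0.19, −0.54 and −0.49 in litters 1 to 4. Its member Wnt7a, below the filter, had 3, 1, 100 and 47 counts in females and 13, 10, 1 and 0 in males. Lhx1, also below it, had 0, 0, 9 and 3 in females and 22, 12, 8 and 0 in males. The part of duct tissue in the pools was not tested. DESeq2 called 2 genes of the channel list, 1 of the adenosine and ATP list, 1 of the interferon list and 2 of the genital duct list.

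Markers of other cell types had unequal values in the same libraries. The mean level of the epithelial list was higher in the male library of all 4 litters: 26 of 26 members had a log2 fold change above 0 (median 0.57), 15 were higher at an unadjusted p under 0.05, 12 had all males above all females, and none passed the adjusted threshold. Upk2, a urothelial plaque protein gene, stood at 133 ± 42.6 CPM in females and 233 ± 14.8 CPM in males (SD, n = 4; 0.86 ± 0.22, adjusted p = 0.222), and Elf3, an epithelial transcription factor gene, had 0.65 ± 0.15. The summed level of the list was 4916, 5291, 2743 and 3549 CPM in the females of litters 1 to 4 and 5224, 6223, 6313 and 6209 CPM in the males, so the gap was widest in litters 3 and 4, whose female libraries were the lowest. Without litter 3 the median of the list was 0.33, and DESeq2 called 4 of the 26 members. With the mean of this list as a covariate 1 gene was higher and 6 were lower, and 5 of the 13 (with Pnoc, Dmrt2, Masp1 and Crabp1) were among them; the fold changes of Tbx18 and Prrx1 were then −0.78 and −0.86. The epithelial mean was itself higher in the male of all 4 litters, so the fit with this covariate cannot fully separate it from sex. In bulk RNA fewer cells of a type and less RNA per cell cannot be told apart.

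The neuron list stood high in 1 male library and not in the other 3. Its summed level was 304, 422, 352 and 320 CPM in females and 224, 534, 1157 and 255 CPM in males, with the male library of litter 3 far above the rest. Of 20 tested members 19 had a log2 fold change above 0 (median 0.49), none reached an unadjusted p under 0.05, and without litter 3 the median was −0.11. Slc18a3, the vesicular acetylcholine transporter gene, stood at 0.429, 3.11, 12.8 and 1.07 CPM in the males. With the neuron list as a covariate, an alternative added after the data were seen, the calls came to 102 higher and 109 lower genes and held all 13. Of 12 glial genes 3 were higher and 1 lower at an unadjusted p under 0.05 (median 0.06; S100b −0.91 ± 0.16, adjusted p = 0.0726).

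Lists of blood and vessel cells had medians below 0. Of 9 tested red blood cell genes 7 were lower at an unadjusted p under 0.05 and 1, Hba-a1, was called (median −0.36), and the summed level was 1595 to 2382 CPM in females and 1344 to 1973 CPM in males. The call of Hba-a1 was lost on leaving out any 1 litter. Of 17 immune cell genes 9 were lower and none higher (median −0.27), and the sum was 236 to 283 CPM in females and 209 to 238 CPM in males; the complement gene C1qb of macrophages had −0.39 ± 0.08 (adjusted p = 0.102). Of 18 endothelial genes 8 were lower (median −0.28; the angiopoietin receptor gene Tek −0.39 ± 0.09), with sums of 468 to 755 and 464 to 592 CPM. Of 9 pericyte genes 3 were lower (median −0.11), with sums of 593 to 903 and 633 to 781 CPM. The mesothelium list, which shares keratin and uroplakin genes with the epithelial list, had 3 of 13 members higher at that level (median 0.23), with sums of 1673 to 2913 and 2687 to 3377 CPM. With it as a covariate only Pnoc was called (edgeR), while the fold changes moved little (Tbx18 −0.76, Adam12 −0.72, Prrx1 −0.81 and Crabp1 −1.97). No marker of these lists was at 0 in all 8 libraries, and the part of these cell types in the 13 calls was not tested beyond these fits.

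**Figure D4:**
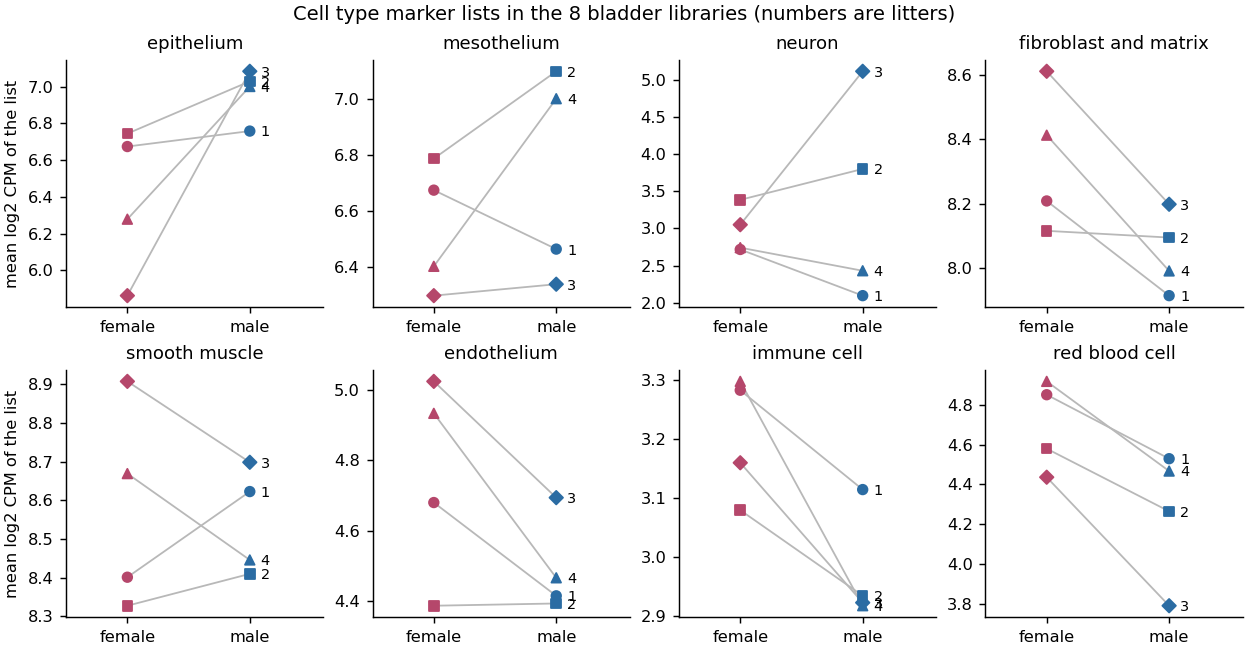
Each panel shows 1 marker list, with the mean log2 CPM of its tested members (vertical axis, its own range in each panel) in the female and the male bladder libraries; numbers are litters, and lines join the libraries of 1 litter. The epithelium list is higher in the male of each litter, by 0.08, 0.28, 1.22 and 0.72 for litters 1 to 4, and the neuron list of the male of litter 3 stands alone at 5.11.

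Far fewer genes differed between the sexes in the bladder than in the urethra of the same pools. In the urethra 572 autosomal genes were higher (3.34% of 17119 tested) and 443 lower (2.59%) in males by the same fit. Of these 1015 genes 886 were tested in the bladder, where their median size of difference was 0.20 on the log2 scale, against 0.60 in the urethra and 0.09 for all bladder genes. The sign was the same in both tissues for 658 of the 886 (74.3%), beside 63.8% of the 15860 genes tested in both. The difference of the sex differences itself, fitted over all 16 libraries, was called for 157 genes (0.891% of 17617), 39 with the bladder value higher and 118 with it lower; 130 of them were called in the urethra and 4 in the bladder. Leaving out litters 1, 2, 3 and 4 in turn left 43, 75, 69 and 61 such genes.

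The 6 genes with the smallest p for the tissue difference had a male excess in the urethra and bladder values near 0, a pattern that choosing by that p favours. Of the 886 genes, 20 had a bladder difference of at least 1 on the log2 scale. The share of all bladder genes with a difference of that size was not worked out. Nt5e, which encodes the ectoenzyme that turns AMP into adenosine, stood at 38.2, 34.6, 54.03 and 47.1 CPM in female and 46.3, 34.9, 52.5 and 40.7 CPM in male bladders. Its sex difference was 0.01 ± 0.08 in the bladder and 2.88 ± 0.07 in the urethra (difference of the 2 −2.86, adjusted p = 1.01e-06, edgeR). Similar values were found for Ramp1, a subunit of the CGRP receptor (−0.11 ± 0.06 and 1.71 ± 0.08, difference −1.80, adjusted p = 6.20e-07), and for Clu, a secreted chaperone gene (−0.04 ± 0.06 and 1.48 ± 0.06, −1.50, adjusted p = 6.65e-05). Glp2r, the receptor gene of glucagon-like peptide 2, had −0.03 ± 0.21 and 3.77 ± 0.19 (−3.80, adjusted p = 7.16e-05). Lmcd1 and Pdgfd, a LIM domain gene and a platelet-derived growth factor gene, had −0.06 ± 0.06 and −0.09 ± 0.08 in the bladder against 0.95 ± 0.06 and 1.03 ± 0.06. The steroid-induced genes Fkbp5 and Zbtb16 differed between tissues as well, by −1.07 and −1.88 (adjusted p = 4.77e-04 and 0.00121), as did Aldh1a1, by −2.22 (adjusted p = 3.90e-04). Ramp2, another receptor subunit of this family, had −0.32 ± 0.09 in the bladder and 0.22 ± 0.06 in the urethra (−0.52, adjusted p = 0.0417). Esr1 was lower in male urethra (−1.81 ± 0.06), and its tissue difference of 1.21 did not pass (adjusted p = 0.0878).

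Of the 13 genes called in the bladder, 6 were also called in the urethra with the same sign, including Pnoc, Masp1, Prrx1 and Crabp1. Masp1 had nearly the same value in both, −0.82 ± 0.09 and −0.81 ± 0.05, and its tissue difference did not pass (adjusted p = 0.996). On the log2 scale the sex difference was called as larger in the bladder for 4 genes. Adam12 had −0.74 ± 0.08 against 0.04 ± 0.09 in the urethra (difference −0.76, adjusted p = 0.00759). Dmrt2 had −3.11 ± 0.29 against −0.01 ± 0.21 (−3.08, adjusted p = 0.0431), Emilin2 −1.08 ± 0.13 against −0.30 ± 0.09 (−0.76, adjusted p = 0.0423) and Pnoc 5.01 ± 0.38 against 1.48 ± 0.21 (3.59, adjusted p = 0.0237). Pnoc stood at 0.15 ± 0.14 and 5.02 ± 2.15 CPM in female and male bladders (SD, n = 4, scaled over all 16 libraries). In female and male urethras it stood at 2.66 ± 0.76 and 7.30 ± 1.10 CPM. Female bladders were near 0, so the size of its log2 difference there depends on the prior count. Crabp1 stood at 20.8 ± 5.44 and 5.74 ± 2.15 CPM in female and male bladders and at 140.4 ± 9.42 and 70.7 ± 6.44 CPM in female and male urethras (SD, n = 4, scaled over all 16 libraries). Over all 595 genes at least 4-fold higher in the urethra, the median difference between male and female bladders was 0.10, and by litter it was −0.25, 0.07, 0.59 and −0.36. In male bladders 244 of them had values below 0 and 351 above. At an unadjusted p under 0.05 (edgeR), 52 of the 595 were lower and 25 higher. Of 488 genes at least 4-fold higher in the bladder, 10 were lower and 92 higher in male bladders at that level. Their median difference was 0.10, with 167 values below 0 and 321 above, and by litter it was 0.15, 0.13, −0.05 and 0.25. Among the 11 genes called lower in male bladders, 7 were called higher in the urethra than in the bladder and 2 lower. The share of all tested genes called in either direction was not worked out, so these counts stand without a background. The part of urethral tissue in the bladder pools was not tested beyond these values.

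**Figure D5:**
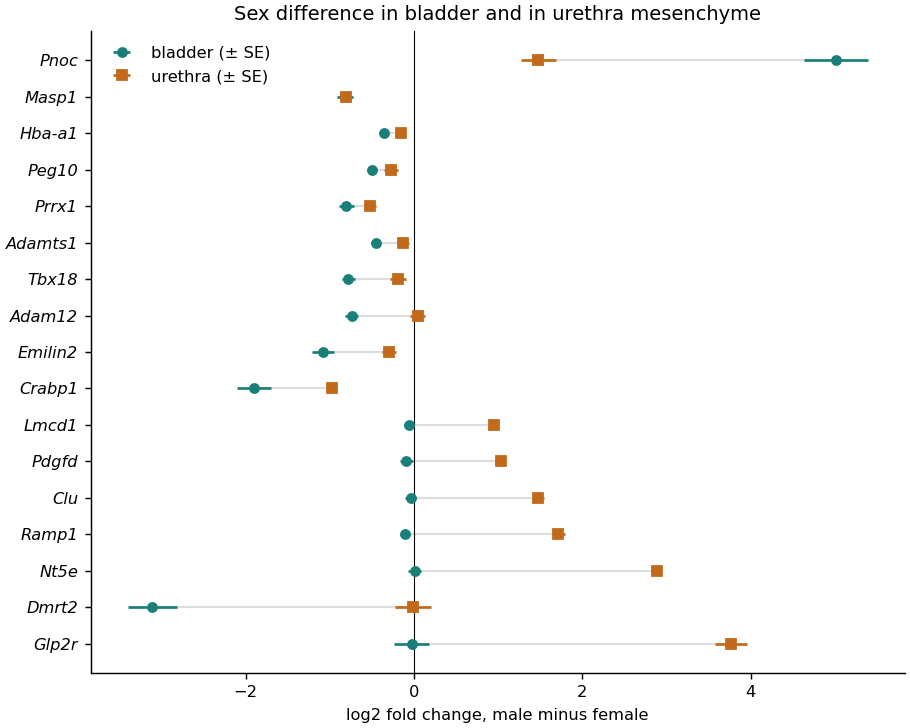
For 11 of the 13 genes called in the bladder, and for the 6 genes with the smallest p for a tissue difference, the log2 fold change between males and females (horizontal axis, ± SE) is shown in the bladder (circles) and the urethra (squares), ordered by the difference between them. The 2 values of Masp1 nearly coincide, Dmrt2 and Adam12 lie near 0 only in the urethra, and Nt5e, Glp2r, Ramp1, Clu, Lmcd1 and Pdgfd lie near 0 only in the bladder.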

How the data were processed

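RNA of 16 mesenchyme pools was sequenced as 100 bp paired ends from poly(A)-selected, strand-marked libraries made from 250 ng of total RNA, per the labels' protocols. The deposited table holds raw read-pair counts per gene symbol, which the authors made with featureCounts 1.6.3 using strand setting 2, per the file headers; alignment was with HISAT2 2.1.0 on GRCm38, per the submitters' processing notes, and no source used here names the annotation release. Counting by symbol pools loci that share a name, and near-identical genes can share reads.

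From these counts the 8 bladder libraries were fitted with edgeR 4.0.16 in R 4.3.3 (TMM scaling, filterByExpr on sex, robust dispersion and quasi-likelihood fit, litter and sex as terms), with Benjamini-Hochberg adjustment over all 16824 tested genes and a threshold of 0.05; only autosomal rows were read. The urethra was fitted alike, and the tissue difference of the sex differences over all 16 libraries, with the 4 groups and the litter as terms. That fit had no term for the pool, so the pairing of bladder and urethra within a pool was not modelled in it. Litters pair the libraries by the labels; same-litter libraries correlated in their deviations from the group means in 3 of 4 litters (r = 0.326, 0.224, 0.308 and 0.0332, other litters median −0.10). CPM used TMM-scaled library sizes, and list scores a prior count of 2. Counts of any 2 libraries of a group differed by more than sampling noise (chi-squared per degree of freedom 4.91 to 30.7).

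The members, the 30 gene lists and the tests were chosen with earlier results of these data known. Genes named were those called (the 12 highest and lowest and the 6 with the smallest p in each direction), called members of a list or else its member with the smallest p, Esr1, Pgr, Srd5a1, Srd5a2, Nt5e and Fkbp5, the 6 genes with the smallest p for the tissue difference, and list members picked after their values were seen; 2 called genes enter the counts but are not reported here by name. The fit was also run on simulated data of 16648 genes, of which 65, 67 and 66 were changed by 1.5-, 2- and 4-fold. It recovered 70.8%, 82.1% and 98.5% of these. Of its 187 calls 21 were false, a larger share than the adjusted p threshold names. The simulated libraries were given no differences between litters, whereas real libraries of the same litter mostly correlated. Whether the simulated libraries otherwise varied as the real ones do was not tested. These rates therefore do not tell how many differences the fit missed in the bladder. Alternatives were other scalings, filters, tools (limma 3.58.1 voom, DESeq2 1.42.0), no litter block, all 16 libraries in 1 fit, marker covariates and leaving out each litter. Promoter sequences came from RefSeq, and figures were drawn with matplotlib 3.10.9.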

Additional observations from a re-analysis of the deposited data

Results flagged for a closer look

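A library far from the other 3 of its group was sought in 158 groups of 4 libraries, over the genes that the naming rule gave and the 30 lists, by Dixon's 95% limit, which chance passes in about 1 in 20 groups, and 8 passed. In log2 CPM they were Tbx18 in the female of litter 4 (4.88, others 4.40 to 4.47), Emilin2 in the male of litter 1 (2.53, others 3.06 to 3.12), Crabp1 in the male of litter 1 (1.31, others 2.69 to 2.75), Tnnt3 in the female (4.68, others 5.30 to 5.30) and the male (5.07, others 5.58 to 5.64) of litter 2, and Wnt5b in the female of litter 3 (5.15, others 5.65 to 5.68). The mean of the immune cell list stood apart in the male of litter 1 (3.12, others 2.92 to 2.94), and that of the cartilage and bone list in the male of litter 3 (2.48, others 2.25 to 2.29).

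The sex difference in the bladder minus that in the urethra passed the test for 18 of the named genes. It was above 0 for Pnoc (3.59). It was below 0 for Dmrt2 (−3.08), Adam12 (−0.76) and Emilin2 (−0.76), which were lower in male bladders. It was also below 0 for Glp2r (−3.80), Nt5e (−2.86), Aldh1a1 (−2.22), Zbtb16 (−1.88), Ramp1 (−1.80), Clu (−1.50), Pdgfd (−1.09), Fkbp5 (−1.07), Lmcd1 (−0.99) and Ramp2 (−0.52). So it was for Ebf2 (−2.79), Sfrp4 (−2.52), Zim1 (−1.34) and Ptn (−0.89), which were named after their values were seen.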

How the results depend on the processing

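The main counts of 2 higher and 11 lower autosomal genes changed by more than 1.5 times under several settings. They were 43 and 69 with all 16 libraries and the block, 40 and 48 with all 16 and no block, 183 and 169 with DESeq2, and 226 and 189 without an expression filter. With the epithelium covariate they were 1 and 6, with the mesothelium covariate 1 and 0, against a fold of 1.2 (glmTreat) 1 and 4, and with the neuron covariate, added after the data were seen, 102 and 109. Without the replicate block that pairs litters, 3 were higher and 4 lower; the block changed no other count by over 1.5 times. Leaving out 1 litter at a time gave 0 to 28 higher and 0 to 57 lower genes. It gave 43 to 75 genes for the tissue difference (157 in the main fit) and 506 to 1088 for the urethra (1015). Limma-voom, other scalings, a CPM filter and a fit that was not robust gave 2 to 3 higher and 9 to 14 lower genes.

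The 13 called genes kept their direction under each of the 16 to 18 settings that gave them an adjusted p. Their calls were less stable, from 5 of 18 such settings for Hba-a1 to 16 of 17 for Pnoc. Bladder values near 0 turned sign for Glp2r with library totals (0.0017) and the epithelium (0.50), mesothelium (0.15) and neuron (0.0797) covariates, and from −0.27 to 0.12 on leaving out a litter. Nt5e ran from −0.0805 to 0.0811 and Clu from −0.0632 to 0.0052 on leaving out a litter. With the epithelium covariate Slc18a3 was −0.80, Esr1 0.13 and Lmcd1 0.0025. The cause was not tested. Genes of a few counts per library, such as Srd5a2, were left out by the filter and tested only in the fit without it.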

Other observations

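At an adjusted p under 0.1 (edgeR), 36 autosomal genes were higher and 56 lower in males. Some of those between 0.05 and 0.1 belong to no list, and the ones named here were chosen after their values were seen. Of the lower ones, Rtl1, a retrotransposon-derived gene of the placenta, had −0.58 ± 0.09 (adjusted p = 0.0642), the zinc finger gene Zim1 −0.97 ± 0.14 (adjusted p = 0.0758), and Asb4, which neighbours Peg10 on chromosome 6, −0.47 ± 0.07 (adjusted p = 0.0589). Zim1 stood at 60.01, 55.4, 51.8 and 93.8 CPM in the females of litters 1 to 4 and 23.5, 36.4, 31.4 and 40.2 CPM in the males, without overlap. Ptn, pleiotrophin of growing connective tissue, had −0.48 ± 0.08 (adjusted p = 0.0726). On the higher side, Ren1, renin, stood at 0.159, 0.324, 0.0489 and 0.256 CPM in females and 2.05, 1.53, 0.795 and 0.612 CPM in males (2.60 ± 0.41, adjusted p = 0.0687), and Cdkn1a, the cell cycle inhibitor p21, at 18.9, 23.98, 15.3 and 18.3 and 27.05, 31.5, 27.9 and 26.7 CPM (0.58 ± 0.09, adjusted p = 0.0573). None of these passed the threshold of 0.05.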
